A study of Mus musculus with 4 samples.

Results

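The plasma membrane amino acid transporters examined here are 10 genes: Slc7a1, Slc7a3, Slc7a5, Slc7a11, Slc3a2, Slc38a2, Slc1a4, Slc1a5, Slc6a9 and Slc43a1. A gene was taken when the array held a probe set annotated to its symbol alone, and where a gene had several such probe sets the one with the highest mean over the 4 arrays was used. This gave values for 9 of the 10 genes, out of 22180 genes measured this way. The exception was Slc6a9, the glycine transporter GLYT1, whose probe set is also annotated to Ccdc24, so no level is given for it. Slc7a11 was too dim to be counted, as described below, which left 8 genes for the counts by size.

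Each of the 4 arrays carried total RNA from embryoid bodies, clusters of embryonic stem cells in the first steps of differentiation. All came from R1, a single mouse embryonic stem cell line depleted of feeder cells, kept for 18 h without LIF, the cytokine that holds the cells undifferentiated. The groups were GSK-J4 at 1.88 µM, GSK-J5 at 1.88 µM, DMSO, and EB medium with no addition, with 1 array each. GSK-J4 inhibits the KDM6 histone demethylases, and GSK-J5 is its weakly active control compound, listed by the submitters as a vehicle compound. With 1 array a group, no difference has a replicate check and none carries a p-value or an interval.

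Amino acids cannot cross the plasma membrane unaided, and each transporter family handles its own set. Slc7a1 and Slc7a3 are the cationic amino acid transporters that bring in arginine and lysine. Slc7a5 and Slc7a11 are light chains that reach the cell surface bound to the heavy chain Slc3a2: with Slc7a5 it exchanges leucine and other large neutral amino acids, and with Slc7a11 it takes up cystine in exchange for glutamate. Slc1a4, Slc1a5 and Slc38a2 are sodium-coupled carriers of small neutral amino acids, Slc1a5 and Slc38a2 also of glutamine. Slc43a1 carries large neutral amino acids by facilitated diffusion. Several of these genes are known targets of ATF4, a transcription factor made in greater amounts when amino acids run short or when other stresses lower the activity of the initiation factor eIF2.

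Transcripts of Slc7a1, Slc1a4 and Slc1a5 were higher in GSK-J4 than in every control array, by 1.60-fold to 2.04-fold over the nearest control. The dim Slc7a11 was higher as well, by a size that is not exact because its controls lay under the brightness filter. The heterodimer genes Slc7a5 and Slc3a2, which were already bright in the controls, lay above them by 1.17-fold and 1.15-fold. Slc7a3 and Slc38a2 lay closer still, and Slc43a1 lay within the range of the controls. No transporter measured lay below all 3 controls.

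**Figure D1:**
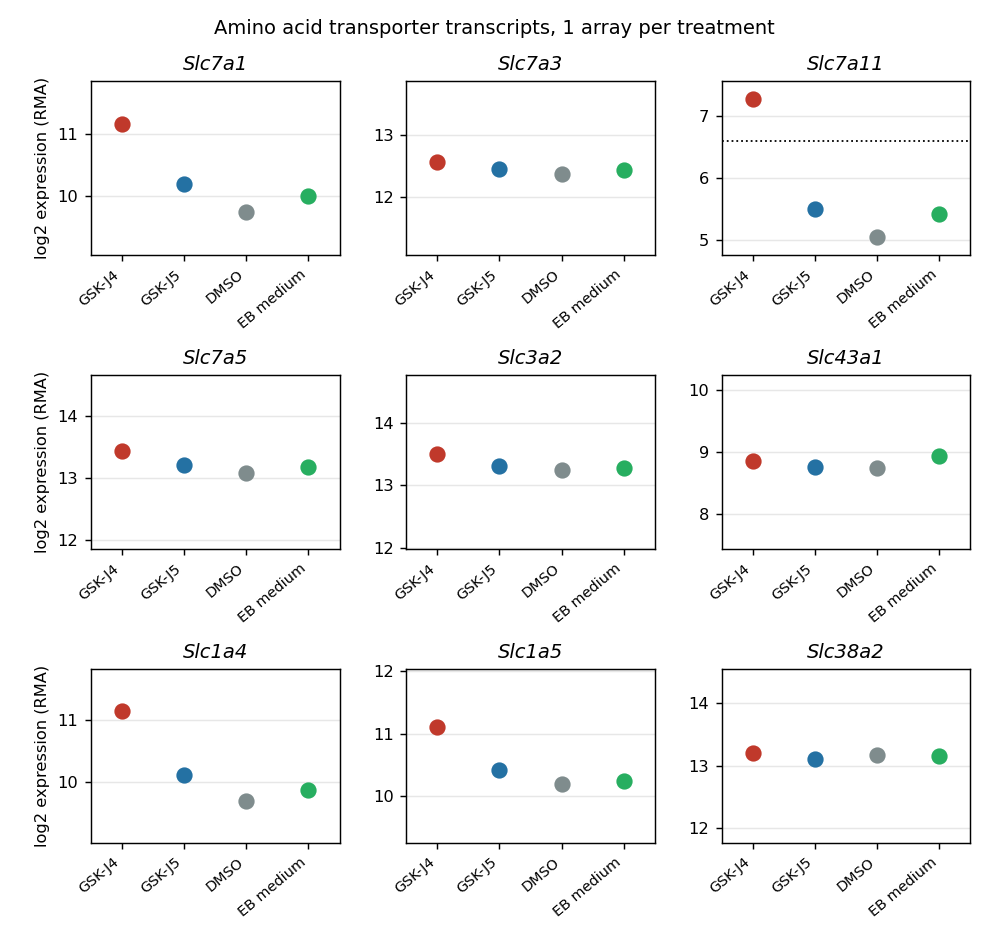
Log2 expression of the 9 measured transporters (vertical axis) on the GSK-J4, GSK-J5, DMSO and EB medium arrays (horizontal axis), with 1 point for each array and the same span of log2 units in every panel. The dotted line in the Slc7a11 panel is the brightness filter at 6.59. The GSK-J4 point stands clear of the controls for Slc7a1, Slc7a11, Slc1a4 and Slc1a5.

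A gene was counted as higher when its GSK-J4 value exceeded the highest of GSK-J5, DMSO and EB medium by 0.585 log2 units, which is 1.5-fold, or more. Only genes whose mean over the 4 arrays reached 6.59 were counted, the 40th percentile of all genes. By this rule 3 of the 8 transporters that passed were higher and 0 lower. Over all 13308 genes that passed, 294 (2.21%) were higher and 112 (0.842%) lower. By any amount, 7 of the 8 lay above all controls and 0 below, beside 38.0% above and 35.5% below over all genes that passed. The median difference of the 9 measured transporters was 0.23 from GSK-J5, 0.35 from DMSO and 0.26 from EB medium on the log2 scale. The corresponding medians over all genes were −0.02, −0.02 and −0.01. Because RNA came from whole embryoid bodies, a change in the share of a cell type and a change in RNA per cell cannot be told apart.

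Of the cationic amino acid transporters, Slc7a1 differed and Slc7a3 hardly did. Slc7a1, the broadly expressed arginine and lysine carrier also known as CAT1, read 11.15 in GSK-J4, against 10.19 in GSK-J5, 9.74 in DMSO and 9.99 in EB medium. GSK-J4 stood apart from controls that spanned 0.45, and the difference was 1.95-fold from GSK-J5, 2.66-fold from DMSO and 2.23-fold from EB medium. By distance to the nearest control Slc7a1 ranked 86 among the 13308 genes. Slc7a3, the related carrier CAT3, read 12.56 in GSK-J4, against 12.45 in GSK-J5, 12.38 in DMSO and 12.43 in EB medium. GSK-J4 was the highest of the 4 arrays for Slc7a3 too, but by only 0.11, or 1.08-fold.

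Both sodium-coupled carriers of the Slc1 family were higher. Slc1a4, the alanine, serine and cysteine transporter ASCT1, read 11.15 in GSK-J4, against 10.12 in GSK-J5, 9.70 in DMSO and 9.87 in EB medium. It lay 2.04-fold above GSK-J5 and ranked 66 of 13308 genes, the highest rank of the 8 transporters counted. Slc1a5, the glutamine carrier ASCT2, read 11.10 in GSK-J4, against 10.42 in GSK-J5, 10.19 in DMSO and 10.23 in EB medium. That was 1.60-fold above GSK-J5 and 1.88-fold above DMSO, at rank 199. A dimmer probe set of Slc1a5 read 8.84 in GSK-J4, against 8.01 in GSK-J5, 7.79 in DMSO and 8.11 in EB medium, so both Slc1a5 probe sets placed GSK-J4 highest, with distances of 0.68 and 0.73 to the nearest control.

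Slc7a11, the cystine transporter subunit xCT, had the largest difference of the transporters measured but also the least certain size. It read 7.27 in GSK-J4, against 5.49 in GSK-J5, 5.04 in DMSO and 5.42 in EB medium. Only the GSK-J4 value lay above the filter level of 6.59, and with a mean of 5.81 the gene stayed out of the counts. The distance to the nearest control was 1.78, or 3.43-fold, a size that is not exact since detection of the control values was not examined, and it was 0.95 for the median over both probe sets of the gene. Among the 8872 genes too dim to be counted, 47 (0.530%) lay at least 1.5-fold above the controls, and Slc7a11 was second among these 8872 genes by distance. Its other probe set was dimmer still, at 3.72 in GSK-J4, against 3.60 in GSK-J5, 3.60 in DMSO and 3.61 in EB medium, close to the lowest values of the arrays (2.20 to 2.44), and showed a distance of only 0.11.

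Sequences before the start sites of Slc7a11, Slc1a4 and Slc7a1 are shown because ATF4-responsive elements can lie there. Slc1a5, which was also higher, is not among them, since no window was at hand for it, nor for Slc7a3 and Slc7a5. RefSeq windows on GRCm38.p6, from 250 bases before to 50 after each start, were at hand for 7 of the 10 genes: Slc7a1, Slc7a11, Slc3a2, Slc38a2, Slc1a4, Slc6a9 and Slc43a1. Each was searched on both strands for TGATGNAA, the core of the C/EBP-ATF composite element, in which N is any base. Of all 32851 windows, 1304 (3.97%) held at least 1 match and 23 (0.0700%) held 2 or more. Slc7a11 held 2 matches, at −66 to −59 and, on the opposite strand, at −47 to −40, counted from −1 at the base before the start. Slc1a4 held 1, on the opposite strand, from −4 to 4 across the start site, where 1 is the annotated start. The windows of Slc7a1, Slc3a2, Slc38a2, Slc6a9 and Slc43a1 held none, which says only that these letters are not in them. In the stretches below, written 5′ to 3′ on the strand of the gene, capitals mark the matches. The Slc7a11 stretch is chr3:50443614-50443693 (minus strand), that of Slc1a4 is chr11:20332704-20332793 (minus strand) and that of Slc7a1, shown as a higher transporter without a match, is chr5:148399905-148399984 (minus strand).
Slc7a11: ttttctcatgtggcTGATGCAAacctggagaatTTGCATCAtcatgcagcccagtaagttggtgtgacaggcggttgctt
Slc1a4: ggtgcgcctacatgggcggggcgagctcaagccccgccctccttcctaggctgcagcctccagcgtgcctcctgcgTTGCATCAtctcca
Slc7a1: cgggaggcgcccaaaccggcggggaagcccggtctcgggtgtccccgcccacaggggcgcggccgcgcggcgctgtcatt
A match is a description of the sequence, and binding was not measured here. Slc7a11 and Slc1a4 were both higher in GSK-J4, and so was Slc7a1, whose windows held no match.

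The leucine exchanger and its heavy chain differed by small amounts. Slc7a5, the LAT1 light chain, read 13.43 in GSK-J4, against 13.20 in GSK-J5, 13.08 in DMSO and 13.17 in EB medium. Slc3a2, the CD98 heavy chain that both Slc7a5 and Slc7a11 need to reach the surface, read 13.51 in GSK-J4, against 13.31 in GSK-J5, 13.25 in DMSO and 13.28 in EB medium. In both genes GSK-J4 was the highest array, above controls that spanned 0.12 for Slc7a5 and 0.06 for Slc3a2. Slc43a1, the LAT3 carrier that needs no heavy chain, read 8.85 in GSK-J4, against 8.75 in GSK-J5, 8.74 in DMSO and 8.94 in EB medium. Here EB medium was highest and GSK-J4 lay inside the range of the controls.

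Slc38a2, the sodium-coupled carrier SNAT2 known in other cells for its rise when amino acids are withdrawn, read 13.21 in GSK-J4, against 13.11 in GSK-J5, 13.17 in DMSO and 13.15 in EB medium. GSK-J4 exceeded the nearest control by 0.04, which is less than the 0.06 that the controls spanned. It was the one transporter of the 9 for which GSK-J5 was the lowest array.

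**Figure D2:**
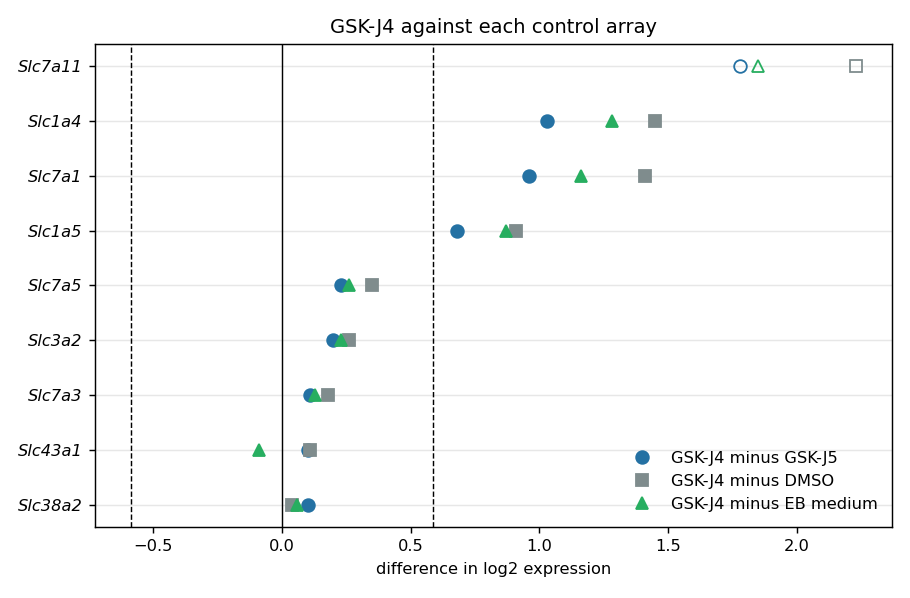
Difference in log2 expression between GSK-J4 and each control array (horizontal axis) for the 9 measured transporters (vertical axis), with circles for GSK-J5, squares for DMSO and triangles for EB medium, and open symbols for the dim Slc7a11. Dashed lines mark 1.5-fold in either direction. Slc7a11, Slc1a4, Slc7a1 and Slc1a5 lie beyond the right-hand line for all 3 controls, and the other 5 lie between the lines.

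Few genes near the top of the scale passed the 1.5-fold rule on these arrays, whatever their function. Slc7a3, Slc7a5, Slc3a2 and Slc38a2 each had a mean level of at least 12. Of the 786 genes at that level, 1 (0.127%) was higher in GSK-J4 by the rule and 3 were lower. In the range from 10 to 12, which holds Slc7a1, Slc1a4 and Slc1a5, 46 of 3625 genes (1.27%) were higher. Set against the 786 bright genes alone, Slc7a5 ranked 27, Slc3a2 37, Slc7a3 64 and Slc38a2 131 by distance to the nearest control. Whether the response of the array flattens at such levels was not tested.

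Set directly against GSK-J5, the control compound at the same dose and time, GSK-J4 had 3 of the 8 counted transporters at least 1.5-fold higher, Slc1a4, Slc7a1 and Slc1a5, and 0 lower. Over all counted genes 437 (3.28%) were higher and 185 (1.39%) lower. Against DMSO and against EB medium these same 3 transporters were higher by 1.5-fold and 0 were lower. Over all counted genes, 518 (3.89%) were higher and 209 (1.57%) lower than in DMSO, and 394 (2.96%) were higher and 223 (1.68%) lower than in EB medium. These comparisons share the GSK-J4 array. Slc7a5, Slc3a2, Slc7a3, Slc38a2 and Slc43a1 lay within 0.23 of GSK-J5. With 1 array for each compound, an interval for these differences could not be given, so the values do not show that the compounds act alike on these 5 genes.

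GSK-J5 itself differed from DMSO by less than 1.5-fold in each transporter. None of the 8 counted was past that size in either direction, beside 7 genes (0.0526%) higher and 16 (0.120%) lower over all counted genes. The largest differences between GSK-J5 and DMSO were 0.45 for Slc7a1, 0.45 for the dim Slc7a11, 0.42 for Slc1a4 and 0.23 for Slc1a5. Against EB medium the same genes differed by 0.20, 0.07, 0.25 and 0.19, which is smaller because DMSO was the lowest array for all of them. Over all counted genes the differences between GSK-J5 and DMSO had an SD of 0.133. Both differences contain the GSK-J5 array.

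**Figure D3:**
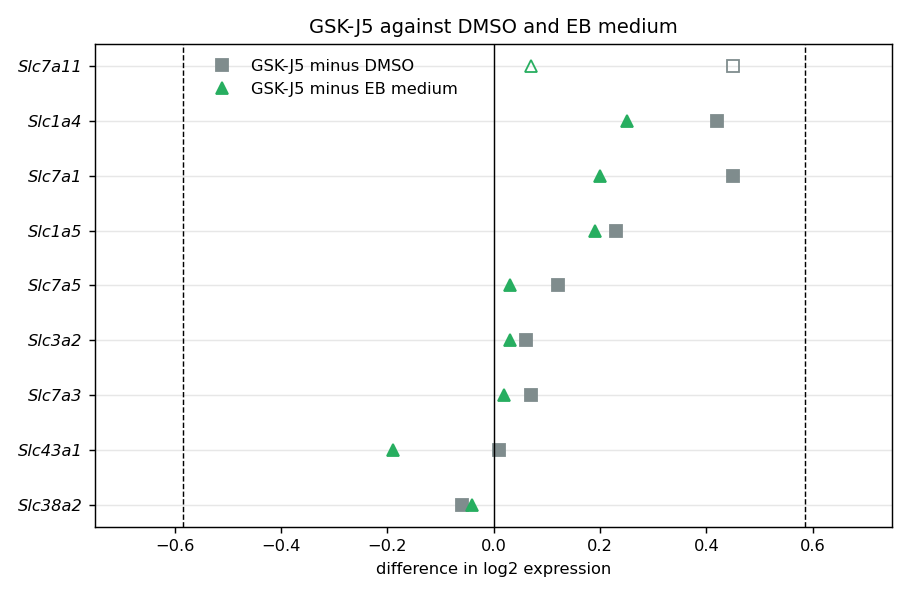
Difference in log2 expression between GSK-J5 and DMSO (squares) and between GSK-J5 and EB medium (triangles) on the horizontal axis, for the 9 measured transporters on the vertical axis, with open symbols for the dim Slc7a11 and dashed lines at 1.5-fold. All values lie between the lines, and Slc7a1, Slc7a11 and Slc1a4 are farthest from DMSO, at 0.42 to 0.45.

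The 4 arrays stood in one order for most of the transporters. GSK-J4 was highest, followed by GSK-J5, EB medium and DMSO, for 7 of the 9 measured and for 6 of the 8 counted, and this order held for 966 of all counted genes (7.26%). The exceptions were Slc38a2 and Slc43a1. DMSO was the lowest array for 8 of the 9 measured and 7 of the 8 counted, beside 26.7% of all counted genes. No step of this order between the controls reached 1.5-fold.

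Of 15 genes of the ATF4 response other than transporters, all of which passed the filter, 11 were higher in GSK-J4 and 0 lower, with a median difference of 1.08 from GSK-J5. Over all genes that passed, 2.21% were higher and 0.842% lower. This list was chosen with earlier results of these data known, so its count is no test of an ATF4 response. Of the 15 genes, 1 was also at least 1.5-fold higher in GSK-J5 than in DMSO, Ddit3, by 0.70, and 0 were lower. The farthest from the nearest control were Nupr1, a stress-induced transcriptional regulator (2.50), Trib3, a pseudokinase that restrains ATF4 (2.02), and Ddit4, an inhibitor of mTORC1 (1.84). Named after their values were seen, the 4 that lay above all controls without reaching 1.5-fold were Atf4 itself (0.56), Asns, the asparagine synthetase gene (0.44), and Phgdh and Psat1, enzymes of serine synthesis (0.37 and 0.25).

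A second list held 30 other plasma membrane amino acid transporters. Both lists were chosen with earlier results of these data known, so the contrast between them is no test. Of the 18 that passed the filter 0 were higher and 0 lower by the rule, 7 lay above all controls and 6 below. Over all genes that passed, 38.0% lay above all controls and 35.5% below. The median difference of this list from GSK-J5 was −0.11 over all 30 and 0.06 over the 18 that passed. Slc1a1, a transporter of glutamate and of cysteine, came closest to being higher by the rule. It read 7.75 in GSK-J4, against 7.11 in GSK-J5, 7.06 in DMSO and 7.25 in EB medium, which puts GSK-J4 above all controls by 0.50. Slc6a5, a glycine transporter of neurons, differed next most from GSK-J5, by −0.52, but all 4 of its values, at 5.90 to 6.57, were under the filter level. The other light chains that pair with Slc3a2, named for that role after their values were seen, lay close to the controls. Slc7a6 read 11.39 in GSK-J4 against controls of 11.31 to 11.38, and Slc7a7 read 12.62 against 12.56 to 12.64. Slc7a8 read 8.17 against 7.90 to 8.30. Slc7a10 read 6.52, under the filter level, against 6.56 to 6.65, which is 0.04 below the nearest control.

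Lists of lysosomal and mitochondrial transporters, chiefly of amino acids, gave different counts. Among 7 lysosomal transporters that passed the filter, of 8 measured, 1 was higher and 0 lower, and 5 lay above all controls, with a median difference from GSK-J5 of 0.42 over the 8. The higher one was Slc38a7, a lysosomal glutamine and asparagine exporter, which read 11.71 in GSK-J4, against 11.03 in GSK-J5, 10.69 in DMSO and 10.82 in EB medium. It showed the same order of arrays as Slc1a5. Named after their values were seen, Ctns, the lysosomal cystine exporter, lay 0.57 above the nearest control and Slc38a9, a lysosomal amino acid sensor of the mTORC1 pathway, 0.50, both just short of the rule. Set against GSK-J5 alone, 3 of the 7 were at least 1.5-fold higher, Ctns (0.73), Slc38a7 (0.68) and Slc38a9 (0.67), and 0 were lower. Over all counted genes 3.28% were higher and 1.39% lower than in GSK-J5. Against DMSO 2 of the 7 were at least 1.5-fold higher, beside 3.89%, and against EB medium 1, beside 2.96%. Of 10 mitochondrial carriers, chiefly of amino acids, that passed, of 12 measured, 0 were higher and 0 lower. Of these 10, 4 lay above all controls and 6 below, and the median over the 12 was −0.02. Over all genes that passed, 2.21% were higher and 0.842% lower, and 38.0% lay above all controls and 35.5% below. Slc25a15, the mitochondrial ornithine carrier, differed most from GSK-J5 (−0.47), followed by Slc25a44, a carrier of branched-chain amino acids (0.35).

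**Figure D4:**
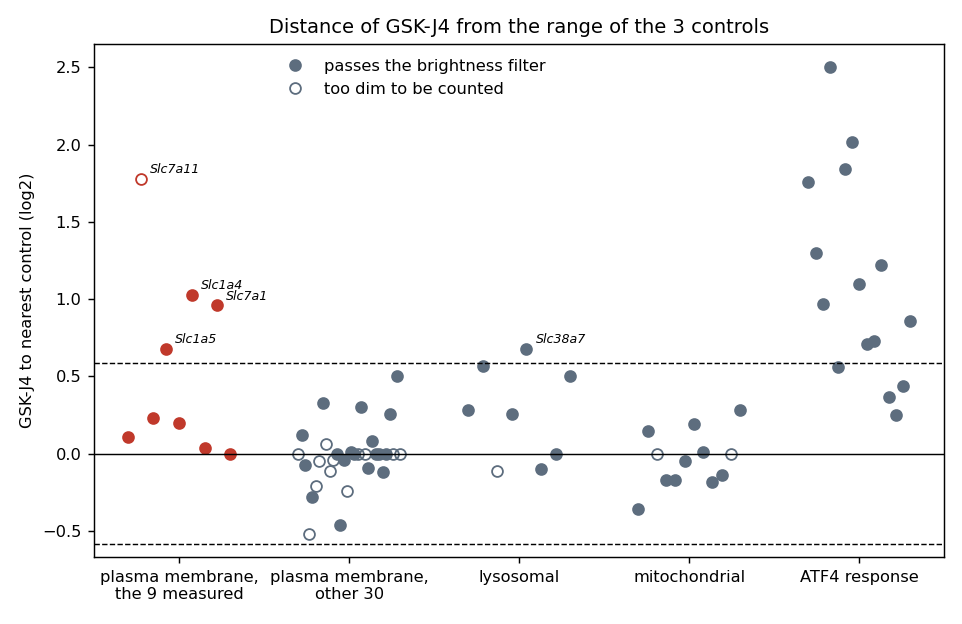
Distance of GSK-J4 from the nearest of the 3 control arrays in log2 units (vertical axis), 0 where it lay within their range, for the 9 measured transporters, 30 other plasma membrane, 8 lysosomal and 12 mitochondrial transporters, chiefly of amino acids, and 15 genes of the ATF4 response (horizontal axis). Each point is a gene, open where too dim to be counted, and dashed lines mark 1.5-fold. Slc1a4, Slc7a1, Slc1a5 and, among lysosomal genes, Slc38a7 lie above the upper line, as does the dim Slc7a11.

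The profile of Slc3a2, taken because it is the partner of both Slc7a5 and Slc7a11, was compared with those of all counted genes by Euclidean distance over the 4 arrays after centring each gene on its mean. The nearest were Zfp790, a zinc finger gene (distance 0.00), Sars2, the mitochondrial seryl-tRNA synthetase (0.01), Wdr45, an autophagy gene (0.01), Gal3st2 (0.01) and Slc43a3, a nucleobase transporter (0.01). Values are given to 0.01 log2 units, the size of these distances, so the order among the nearest genes carries no meaning. Shared regulation was not tested. Slc7a5 stood at rank 364, at a distance of 0.07, and the 3 higher transporters Slc1a5, Slc7a1 and Slc1a4 at ranks 12308, 13172 and 13208, since their differences were larger.

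Across the whole series the arrays were alike in scale, with medians of 6.63 to 6.65 over 41345 probe sets, and each control array set against the other 3 arrays gave 0 transporters and at most 3 genes. The other 3 arrays include GSK-J4, so for transporters where GSK-J4 was the highest array no control could be counted as higher. Of 8 stem cell markers 7 passed the filter, and the exception was Dppa5a, at 6.29 in GSK-J4 against controls of 6.31 to 6.66. None of the 8 lay above all controls and 5 lay below, and over all 22180 genes, dim ones included, 6781 lay above and 8047 below. Of the 7 stem cell markers that passed 4 lay below, beside 35.5% of all genes that passed. Named after their values were seen, Nanog read 13.05 in GSK-J4 against controls of 13.11 to 13.20, and Tdgf1, a Nodal co-receptor gene, read 12.33 against 12.69 to 12.71. Pou5f1 lay 0.05 below the nearest control. Sox2 read 13.02 against 12.93 to 13.02, and Zfp42 and Sall4 also lay within the range of the controls. Of 9 feeder fibroblast markers 4 passed. Of all 9, 0 lay above all controls and 5 lay below, beside 6781 and 8047 of all 22180 genes. Of the 4 that passed 3 lay below, beside 35.5% of all genes that passed. Also named after their values were seen, the collagen gene Col1a2 read 6.45 in GSK-J4 against controls of 6.66 to 7.03, and Dcn, too dim to be counted, 4.78 against 5.29 to 5.59. The GSK-J4 value of Col1a2 was under the filter level. Its dimmer probe set read 3.99 against 3.96 to 4.31, within the range of the controls. Thy1 read 7.80 against 7.71 to 7.90, and Col3a1, Postn and Twist2 also lay within the range of the controls. The log2 levels of the 8 stem cell markers summed to 92.90 on the GSK-J4 array and to 93.57 to 93.97 on the control arrays. Those of the 9 feeder markers, 5 of which were under the filter, summed to 55.60 on the GSK-J4 array and to 57.05 to 57.65 on the control arrays. The part of these differences in the transporter values was not tested.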

How the data were processed

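Biotin-labelled RNA from 4 samples was hybridised to Affymetrix arrays, 1 for each treatment, and the groups follow the submitters' treatment labels. Values were deposited on a log2 scale. Per the submitters' processing notes the authors used RMA and Affymetrix Expression Console (version 1.2.1.20). Base 2 is an inference from the span of the values, 2.20 to 14.48, since no source used here states it. RMA brings arrays to a common distribution, so a shift of all genes cannot be seen. No scanner files were used, so detection was not examined.

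Gene names are those of the platform's annotation table: 23521 of 41345 had a single symbol, 1814 several, and 16010 none listed. The brightest probe set stood for each of the 1082 genes that had more than 1. Differences are described by a rule of size at 1.5-fold among genes at or above the 40th percentile of mean level (6.59). Python 3.11.15, pandas 2.3.3 and statsmodels 0.14.6 were used. The number of arrays limits the precision, and nothing says whether the samples came from separate cultures. Named genes are the 10 transporters; up to 3 counted genes per direction from the other transporter lists, the ATF4 list and all other Slc genes, or the 2 farthest from GSK-J5 where none was counted; and the 5 genes nearest to Slc3a2. Cell type markers fall outside this rule. The transporters and the lists were chosen with earlier results of these data known. Alternatives changed the filter, the scaling (median, quantile, loess with span 0.3), the probe set, the fold and the controls used.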

Additional observations from a re-analysis of the deposited data

How the results depend on the processing

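With 1 array a group there is no spread between replicates, so these values only describe how the numbers move. Slc7a1, Slc1a4 and Slc1a5 were the transporters counted as higher under a filter at the 60th percentile, the 3 rescalings, the median over probe sets, each control array left out and the mean of the controls. Leaving out a control or using the mean of the controls cannot shorten the distance of a gene above all controls. These 3 genes also lie far above the stricter filter, and Slc7a1 and Slc1a4 have 1 probe set each. Of the alternatives just listed, only the rescalings and, for Slc1a5, the median over probe sets could have dropped any of them. Without a filter Slc7a11 joined Slc7a1, Slc1a4 and Slc1a5, making 4. At 2-fold the count was 1, Slc1a4, both against all controls and against GSK-J5 alone, and 2 against DMSO and against EB medium. The median difference of the transporters from GSK-J5 ranged from 0.22 (the genes passing the stricter filter) to 0.28 (loess). Distances to the nearest control ranged from 1.01 to 1.28 for Slc1a4, 0.94 to 1.18 for Slc7a1, 0.67 to 0.87 for Slc1a5 and 0.95 to 1.95 for Slc7a11. The distance of 0.95 is the median over both Slc7a11 probe sets. For Slc7a5, Slc3a2, Slc7a3, Slc38a2 and Slc43a1 no distance exceeded 0.28. Of 72 distances under these alternatives 8 moved by more than 0.133, the SD of GSK-J5 minus DMSO over all counted genes, and 0 changed sign. Over all genes, 294 of 13308 were higher and 112 lower as first counted. Under the stricter filter these counts were 191 and 75 of 8874, and without a filter 341 and 151 of 22180. Of the 13308, 76 were higher and 14 lower at 2-fold, and 412 were higher and 170 lower against the mean of the controls. No paired analysis was possible because each group has 1 array and the labels give no replicate numbers.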

Other observations

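Among the 305 other genes of the Slc families on the array, 201 passed the filter. Of these 201, 8 were higher in GSK-J4 (3.98%) and 4 lower, beside 2.21% and 0.842% over all genes that passed. The median difference from GSK-J5 was 0.00 over all 305 and 0.05 over the 201 that passed. The highest were Slc4a11, a transporter of the bicarbonate carrier family, at 10.25 in GSK-J4 against controls of 9.16 to 9.27, Slc19a2, a thiamine transporter, at 11.53 against 10.58 to 10.73, and Slc25a42, a mitochondrial coenzyme A carrier, at 9.77 against 8.72 to 8.97. The lowest were the lactate exporter gene Slc16a3, at 9.56 in GSK-J4 against 10.57 to 10.70, the zinc importer gene Slc39a10, at 10.67 against 11.48 to 11.54, and Slc5a4b, at 6.15 against 6.78 to 6.94. The GSK-J4 value of Slc5a4b was under the filter level, so its size is not exact.

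The glutamate transporter gene Slc1a3, named after its values were seen, lay lowest among the counted plasma membrane amino acid transporters, at 8.64 in GSK-J4 against 9.10 in GSK-J5, 9.19 in DMSO and 9.15 in EB medium, 0.46 below the nearest control and short of the 1.5-fold rule. Its relative Slc1a1 lay on the other side, 0.50 above the nearest control. Whether these differences exceed the spread between cultures was not tested, since no group has a second array.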
